A study of Mus musculus with 2 samples.

Results

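The 44 genes described here encode nucleolar proteins, RNA polymerase I and the factors that turn its transcript into ribosomal subunits. They were taken by name from a list, and each matched a single row among the 43346 genes of the tables, of which 21474 are protein coding. RNA was sequenced from midbrain of B6NCrl mouse embryos 10.5 days old, a stage at which dividing neuroepithelial cells make up most of the brain wall. The study has 1 group, with no treatment or mutation. Its biological replicates are 2 pools of male and female embryos: 69 embryos in replicate 1 and 51 embryos in replicate 2. The libraries held 47128426 expected counts in replicate 1 and 52189568 in replicate 2. Since no condition was varied, levels are given as a description, and the only comparison is of replicate 1 with replicate 2. That comparison is of 2 libraries and has no replicate check, so no p-value is given.

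Ribosomes are made mostly in the nucleolus. RNA polymerase I, brought to the rRNA genes by Ubtf and Rrn3, makes a long precursor that small nucleolar ribonucleoproteins (snoRNPs) modify and that assembly factors fold, cut and load with ribosomal proteins. Dividing progenitors of the early brain are known for prominent nucleoli, and loss of function of several of these factors, Tcof1 among them, harms neuroepithelium and neural crest in mouse.

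All 44 genes were detected, with at least 1 TPM (the deposited unit of level, corrected for transcript length and library total) in both libraries, against 58.1% of all protein-coding genes. The median over the genes of their mean level was 75.9 TPM, with 73.4 TPM in replicate 1 and 76.2 TPM in replicate 2. The median of the 12477 detected protein-coding genes was 20.7 TPM, and 40 of the 44 lay above it. Levels spanned 139-fold: 13 genes reached 100 TPM, 28 lay between 20 and 100 TPM, and only Npm3 and Utp20 were under 10 TPM. The SD between the libraries (n = 2) ran from 0.12% to 18.2% of a gene's mean, with a median of 8.19%. The group medians were 245 TPM for the box C/D snoRNP proteins, 174.9 TPM for the box H/ACA snoRNP proteins, 78.1 TPM for the nucleolar scaffold proteins and chaperones, 76.4 TPM for the RNA polymerase I machinery, 70.8 TPM for large subunit assembly and 52.4 TPM for small subunit assembly.

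**Figure D1:**
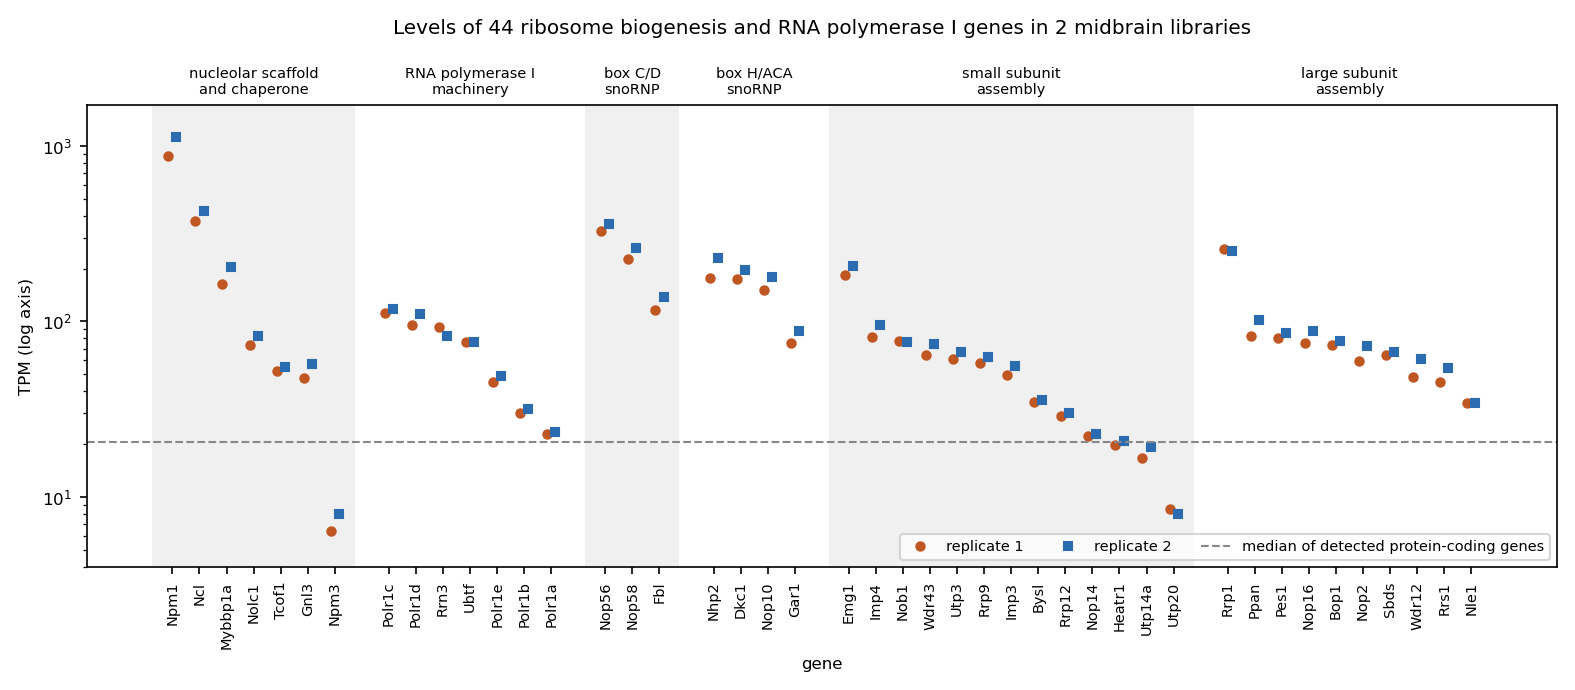
TPM (log axis) of the 44 genes in replicate 1 (circles) and replicate 2 (squares), by role; the dashed line is the median of detected protein-coding genes, 20.7 TPM. Npm1 stands highest and Npm3 lowest, and 40 genes have a mean above the line.

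Among the nucleolar scaffold proteins and chaperones, Npm1, which encodes nucleophosmin, the main protein of the outer nucleolus, was the highest of all 44 genes at 869.7 TPM in replicate 1 and 1126 TPM in replicate 2. It alone made up 17.97% of the summed level of the 44 genes in replicate 1 and 20.2% in replicate 2. Its relative Npm3 had 6.37 TPM in replicate 1 and 8.00 TPM in replicate 2, from 147 and 211 counts, and was the lowest. Chaperones of 1 family thus marked both ends of the range. Ncl, encoding nucleolin, an RNA-binding protein that acts on the nascent precursor, had 374 TPM in replicate 1 and 423 TPM in replicate 2. Mybbp1a, a nucleolar Myb-binding protein, had 164 TPM in replicate 1 and 203 TPM in replicate 2. The other three were lower. Nolc1, which binds snoRNPs, averaged 78.1 TPM ± 6.5 (SD, n = 2, as for all means here), Tcof1, encoding treacle, which holds RNA polymerase I and Ubtf at the rRNA genes, 53.5 TPM ± 1.7, and Gnl3, encoding the nucleolar GTPase nucleostemin, 52.4 TPM ± 6.9. Npm1 lies at chromosome 11, 33152287 to 33163206, and Ncl at chromosome 1, 86344719 to 86359400 (GRCm38).

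The RNA polymerase I genes lay between 23.2 and 114.6 TPM. Polr1a, the largest subunit with the catalytic centre, was the lowest, at 22.9 TPM in replicate 1 and 23.6 TPM in replicate 2. Polr1b, which forms the core with it, had 30.1 TPM in replicate 1 and 31.6 TPM in replicate 2, and Polr1e, an initiation subunit, 45.1 TPM in replicate 1 and 49.2 TPM in replicate 2. Per length, Polr1b stood at 1.33 ± 0.018 and Polr1e at 2.03 ± 0.079 times Polr1a; the ratio of Polr1e was 1.27 when protein-coding transcripts alone were counted. Polr1c and Polr1d, which RNA polymerase III shares, stood at 4.94 ± 0.11 and 4.43 ± 0.35 times Polr1a. Their levels were 111 TPM for Polr1c and 95.5 TPM for Polr1d in replicate 1, against 118 TPM for Polr1c and 110.4 TPM for Polr1d in replicate 2. Both shared subunits lay above Polr1a, Polr1b and Polr1e, the subunits among the 44 genes that belong to RNA polymerase I alone. Of the factors, Ubtf, the architectural protein of active rRNA genes, had 76.4 TPM in replicate 1 and 76.3 TPM in replicate 2. Rrn3, which couples the polymerase to its promoter and is a target of growth signals, had 92.4 TPM in replicate 1 and 82.4 TPM in replicate 2, above both core subunits. The 17 other RNA polymerase I genes listed were all detected, with a median of 31.8 TPM. Highest were Polr2f at 298.5 TPM, Polr2e at 216 TPM and Polr2k at 176.3 TPM, subunits common to all nuclear RNA polymerases, and lowest were Baz2a, of an rDNA-silencing complex, at 11.0 TPM and the terminator protein Ttf1 at 10.4 TPM.

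The snoRNP proteins were the highest group. Box C/D snoRNPs methylate ribose in rRNA. Their methyltransferase gene Fbl, encoding fibrillarin, had 115 TPM in replicate 1 and 137 TPM in replicate 2, below the scaffold subunits Nop56, at 329 TPM in replicate 1 and 361 TPM in replicate 2, and Nop58, at 228 TPM in replicate 1 and 262 TPM in replicate 2. As ratios, Fbl stood at 0.366 ± 0.021 and Nop58 at 0.71 ± 0.025 of Nop56. Snu13, the RNA-binding core protein that is not among the 44, stood at 0.862 ± 0.046 of Nop56. When protein-coding transcripts alone were counted, 0.566 was found for Fbl and 1.32 for Snu13, so the order of Snu13 and Nop56 depends on which transcripts are counted. Box H/ACA snoRNPs turn uridine into pseudouridine, and the same proteins are part of telomerase. Their enzyme Dkc1, encoding dyskerin, had 174 TPM in replicate 1 and 197 TPM in replicate 2. Nhp2 had 177 TPM in replicate 1 and 228 TPM in replicate 2, and Nop10 had 150.2 TPM in replicate 1 and 179 TPM in replicate 2. Gar1 was lower, at 75.6 TPM in replicate 1 and 87.8 TPM in replicate 2. It stood at 0.441 ± 0.0076 of Dkc1, whereas Nhp2 stood at 1.09 ± 0.10 and Nop10 at 0.888 ± 0.032. Protein-coding transcripts alone gave 2.13 for Nhp2 and 1.98 for Nop10. The 15 other snoRNP genes listed had a median of 34.7 TPM, with Snu13 at 297.6 TPM and the assembly ATPases Ruvbl2 at 171.1 TPM and Ruvbl1 at 157.7 TPM highest. BC005561, placed here by the list alone, at 12.3 TPM and Naf1, an H/ACA assembly factor, at 2.50 TPM were lowest.

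Small subunit assembly held both high and low genes. Emg1, a methyltransferase of small-subunit rRNA, was highest with 185 TPM in replicate 1 and 207 TPM in replicate 2. Imp4 averaged 88.4 TPM ± 10.1 and its partner Imp3 52.4 TPM ± 4.3, a ratio of 0.594 ± 0.019 for Imp3 over Imp4 that became 2.09 with protein-coding transcripts alone. Nob1, the endonuclease that cuts the end of small-subunit rRNA, averaged 76.6 TPM ± 0.65, and the processome protein Wdr43 69.5 TPM ± 6.9. Lower down, another processome protein, Utp3, averaged 64.1 TPM ± 3.8, the U3-binding protein Rrp9 60.1 TPM ± 3.2, Bysl, a late small-subunit factor, 35.2 TPM ± 0.58 and the export factor Rrp12 29.4 TPM ± 0.90. The lowest 4 act in the processome, the early particle that forms on the precursor. Nop14 averaged 22.5 TPM ± 0.45, Heatr1 20.3 TPM ± 0.88 and Utp14a, which activates a helicase, 17.9 TPM ± 1.8. Utp20 had 8.58 TPM in replicate 1 and 8.05 TPM in replicate 2. The 47 other small subunit factors matched, of 48 listed, were all detected with a median of 48.4 TPM. They ran from Lsm6 at 238.9 TPM, Fcf1 at 148.5 TPM and Bud23 at 145.4 TPM down to Pdcd11 at 11.2 TPM and Diexf at 7.30 TPM.

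In large subunit assembly, Rrp1 stood apart from the other 9 genes, with 259 TPM in replicate 1 and 251 TPM in replicate 2. The next, Ppan, which acts on the large-subunit precursor in the nucleolus, had 83.2 TPM in replicate 1 and 102 TPM in replicate 2. The PeBoW complex, needed to process large-subunit rRNA, joins Pes1, Bop1 and Wdr12. Pes1 averaged 83.3 TPM ± 3.7 and Bop1 75.4 TPM ± 2.9, close to 1 to 1 (0.905 ± 0.0061 for Bop1 over Pes1), and Wdr12 averaged 54.8 TPM ± 9.1 (0.656 ± 0.079 of Pes1). Nop16 averaged 81.4 TPM ± 9.1, the rRNA methyltransferase gene Nop2 66.1 TPM ± 9.2, Sbds, whose protein helps release Eif6 from the new subunit, 65.8 TPM ± 1.9, and Rrs1, which helps place the 5S particle, 49.8 TPM ± 6.1. Nle1, Notchless, was lowest at 34.2 TPM ± 0.11. The 54 other large subunit factors matched, of 55 listed, were all detected with a median of 55.8 TPM. Highest were Rsl1d1 at 224.9 TPM, Eif6 at 205.6 TPM and Ebna1bp2 at 158.9 TPM, and lowest Urb2 at 6.26 TPM and Spata5l1 at 4.26 TPM. Among 27 matched genes listed as pre-rRNA exonucleases and RNase MRP, which process the precursor, the median was 73.1 TPM. They ran from Exosc8 at 145.1 TPM, Pop4 at 121.7 TPM and Exosc7 at 120.3 TPM to Pop1 at 13.4 TPM and Rpp25 at 5.03 TPM.

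The libraries were then compared. Counts were scaled by TMM and expressed as the fold of replicate 1 over replicate 2. Of the 44 genes 42 were lower in replicate 1, where 50% of the 14768 genes tested were lower. The median fold was 0.856, and folds ran from 0.726 to 1.06. Npm1 had the lowest fold, 0.726 (95% exact binomial interval 0.716 to 0.737), from 28743 counts in replicate 1 and 42983 in replicate 2. Nhp2 followed at 0.734 and Npm3 at 0.758. At the other end stood Rrn3 at 1.06 (1.04 to 1.10), Utp20 at 1.01 (0.955 to 1.07) and Rrp1 at 0.978 (0.957 to 1.00). The interval lay below 1 for 41 genes, above 1 for Rrn3 and held 1 for Utp20 and Rrp1. The share of all genes tested whose interval left out 1 was not counted, so these counts do not set the 44 genes apart. These intervals cover counting error only, and reads copied by PCR are not independent molecules.

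**Figure D2:**
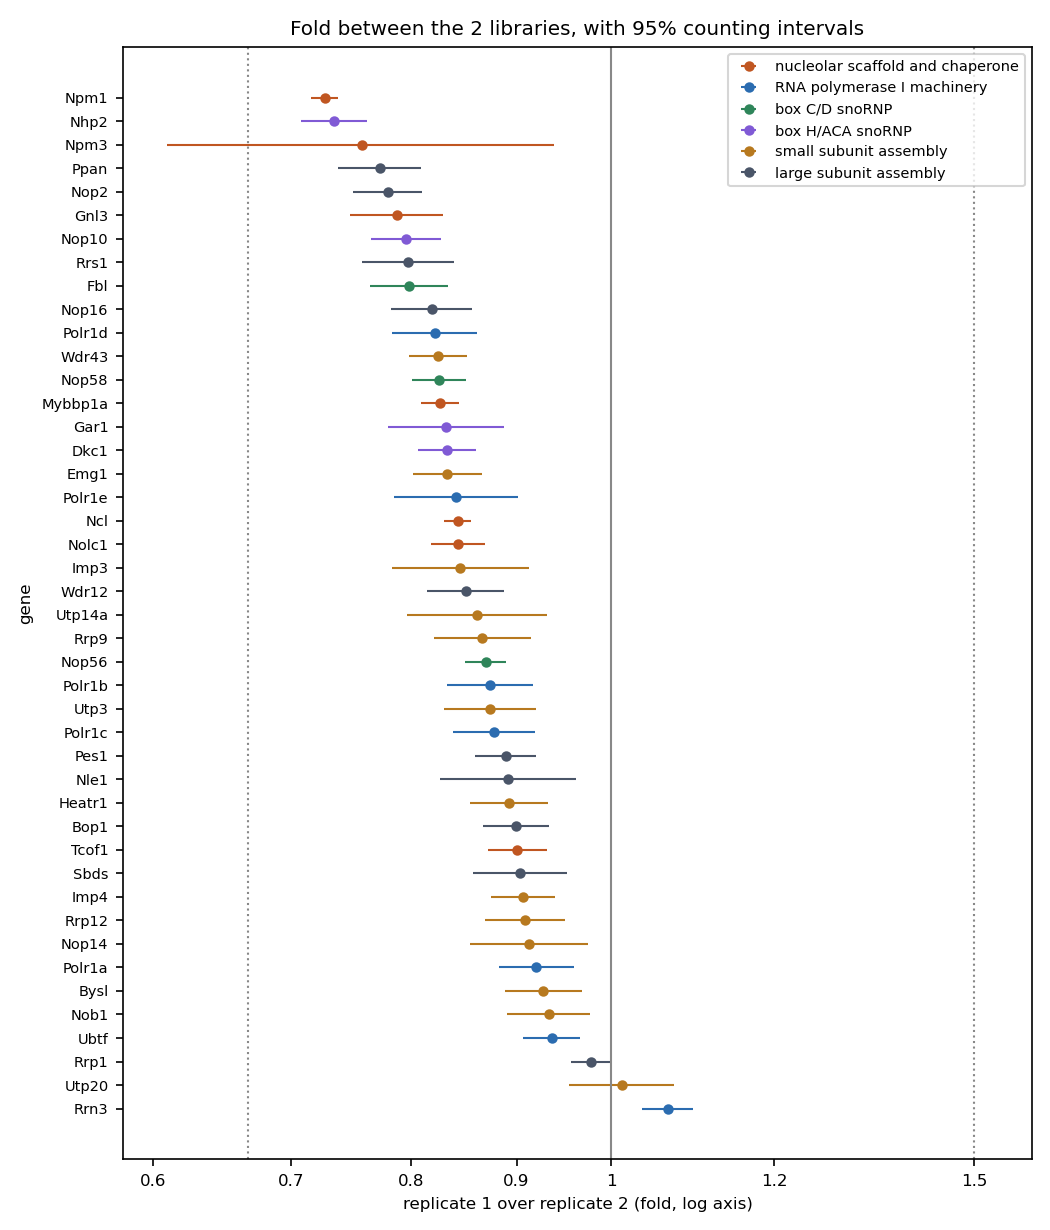
Fold of replicate 1 over replicate 2 (log axis) for the 44 genes, coloured by role, with 95% intervals for counting error. Dotted lines mark 1.5-fold in either direction; all points lie between them, and 42 lie left of 1.

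The folds of the 44 genes lay close together. None of the 44 was past 1.5-fold, against 9.77% of all genes tested, of which 6.72% were higher and 3.05% lower in replicate 1. The lowest mean among the 44 was 7.19 TPM, and 4.42% of the 10816 genes that averaged 5 TPM or more were past 1.5-fold. At a log2 threshold of 0.32 in place of the 0.58 of 1.5-fold, 9 of the 44 were past it, all lower in replicate 1, where 8.57% of all genes were past it in that direction and 23.5% in either. The median log2 fold was -0.23, and the median absolute deviation around it was 0.068, against 0.159 for all genes tested and 0.124 for the 9782 genes in the same range of mean TPM. By role the medians ran from -0.16 for small subunit assembly and -0.19 for the RNA polymerase I machinery to -0.28 for C/D and -0.30 for H/ACA snoRNP proteins. In deposited TPM, without further scaling, 39 of the 44 were lower in replicate 1, beside 37.5% of 14731 genes compared that way. The exceptions were Rrn3, Utp20, Rrp1, Nob1 and Ubtf.

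The lists that work beside the 44 genes lay on the same side. Lower in replicate 1 were 16 of 17 other RNA polymerase I genes, 15 of 15 other listed snoRNP genes and 43 of 47 other small subunit factors. So were 51 of 54 other large subunit factors and 24 of 27 genes listed as pre-rRNA exonucleases and RNase MRP. Over these lists the median log2 folds ran from -0.11 to -0.21. The exception past 1.5-fold in this last list was Rpp25, a subunit of RNase P and RNase MRP, with 7.84 TPM in replicate 1 and 2.22 TPM in replicate 2. Of the cytosolic ribosomal protein genes, taken by name, all 82 detected were lower in replicate 1, with a median log2 fold of -0.31. The median level of all 85 such genes, detected or not, was 653 TPM.

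**Figure D3:**
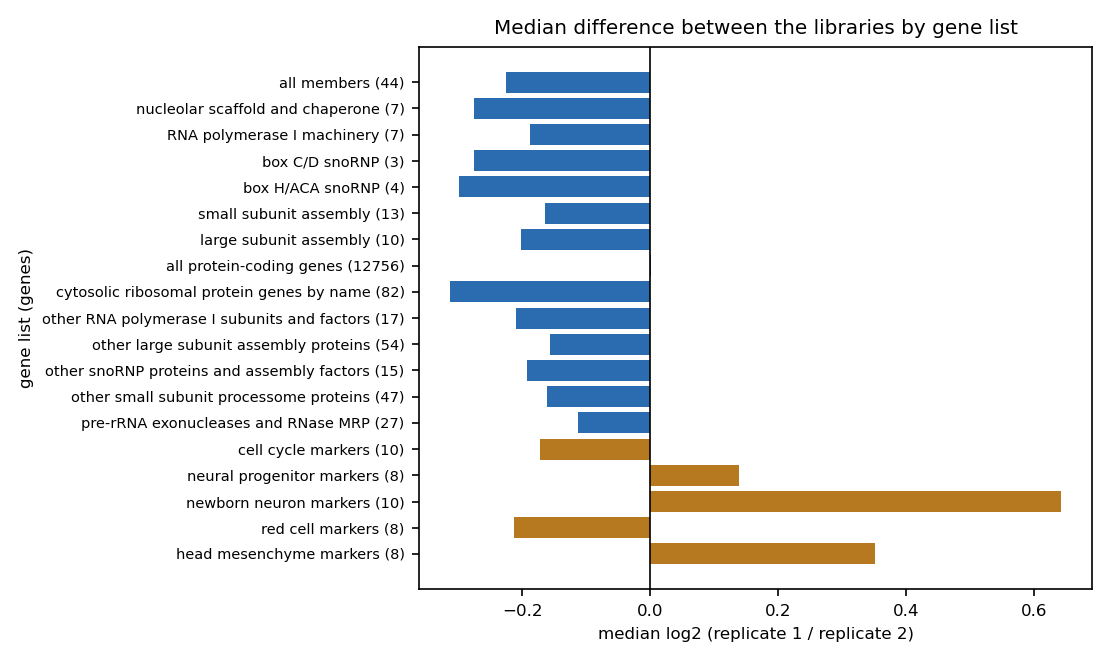
Median log2 fold of replicate 1 over replicate 2 for each gene list, with the number of genes tested in brackets; blue bars are the 44 genes, their roles and related lists, and ochre bars are cell type markers. The ribosome-related lists lie between -0.11 and -0.31, and newborn neuron markers at 0.64.

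Other measures moved with this difference, and their part in it was not tested. Sums below are of deposited TPM, whereas markers are counted as higher or lower by the TMM-scaled fold. Top2a (cell cycle), Hba-a2 (red cell) and Cdh1 (surface ectoderm) were thus counted as lower in replicate 1, though slightly higher there in TPM. Newborn neuron markers summed to 1370 TPM in replicate 1 and 848.7 TPM in replicate 2, with 10 of 10 higher in replicate 1. Neural progenitor markers (8 of 8) summed to 2727 TPM in replicate 1 and 2235 TPM in replicate 2, and head mesenchyme markers (6 of 8) to 822 TPM in replicate 1 and 569.2 TPM in replicate 2. Cell cycle markers went the way of the 44 genes: they summed to 3024 TPM in replicate 1 and 3302 TPM in replicate 2, and 1 of 10 was higher in replicate 1. Red cell markers summed to 16700 TPM in replicate 1 and 18590 TPM in replicate 2, with 0 of 8 higher in replicate 1. Macrophage markers (7 of 8 higher in replicate 1) summed to 87.5 TPM in replicate 1 and 58.5 TPM in replicate 2, endothelial markers (5 of 8) to 175.8 TPM in replicate 1 and 186.1 TPM in replicate 2, and surface ectoderm markers (1 of 8) to 49.9 TPM in replicate 1 and 63.8 TPM in replicate 2. In the bulk tissue, fewer cells of a type and less RNA per cell cannot be told apart. Of 8 midbrain markers 6 were detected, with a sum of 188.5 TPM in replicate 1 and 170.2 TPM in replicate 2. Most of this sum was Otx2, with 138.0 TPM in replicate 1 and 122.7 TPM in replicate 2. En2 and Pax2 were under 1 TPM in both libraries, so the sum says little of the other midbrain markers. Of 6 forebrain markers 4 were detected, with a sum of 47.6 TPM in replicate 1 and 39.0 TPM in replicate 2. Of 8 hindbrain markers 2 were detected, with a sum of 6.94 TPM in replicate 1 and 8.82 TPM in replicate 2, and Hoxa3 and Hoxb3 were at 0 in both libraries.

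Transcript length moved with it as well. Across the 44 genes, genes with longer transcripts tended to have higher folds (Pearson's r = 0.57, Spearman's rho = 0.56, n = 44 genes that share both libraries). Across 9292 protein-coding genes in the same range of levels, r was 0.26. The 22 genes shorter than 1946 nt had a median log2 fold of -0.27, with 22 of 22 lower in replicate 1, beside -0.08 and 69.2% for 3314 genes of that range and length. The 22 longer ones had -0.16, with 20 of 22 lower, beside 0.02 and 45.5% for 5978 genes. The part of length in the difference was not tested.

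Transcript models added detail that gene totals hide. The models are those of the annotation used in the files, with types from GENCODE M21. Of the 44 genes 17 had a single model and 27 had several, 197 models in all. In 7 of the 27 (25.9%) the highest transcript held under 50% of the gene's TPM in both libraries, against 19.9% of 9191 detected protein-coding genes with several models. These 7 were Dkc1, Gar1, Imp4, Nop56, Npm1, Polr1e and Ubtf. Npm1 was divided among 4 protein-coding models, led by Npm1-202 with 49.1% in replicate 1 and 48.6% in replicate 2. In Dkc1 the full-length Dkc1-201 held 31.1% in replicate 1 and 32.01% in replicate 2, and retained-intron models 22.9% in replicate 1 and 21.02% in replicate 2. TPM is per length, so short models weigh more in these shares than in counts. By expected counts, Dkc1-201 had 4283 of 6570 in replicate 1 and 5722 of 8569 in replicate 2. Nop56-202 held 49.3% in replicate 1 and 46.3% in replicate 2, and Gar1-201 42.9% in replicate 1 and 40.9% in replicate 2. Polr1e-202 held 37.2% in replicate 1 and 36.4% in replicate 2, beside a noncoding model, Polr1e-207, with 34.7% in replicate 1 and 31.2% in replicate 2. In these genes the division was much alike in both libraries. Ubtf differed: Ubtf-202 held 30.2% in replicate 1 and 38.0% in replicate 2, and Ubtf-205 held 16.0% in replicate 1 and 0% in replicate 2. Expected counts of Ubtf-205 were 1043 in replicate 1 and 0.43 in replicate 2. Ubtf has 13 models among which reads are shared, and the part of that sharing in the difference was not tested. Nearly all of Ubtf was in protein-coding models in both (99.5% in replicate 1 and 99.8% in replicate 2).

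Ncl had the smallest protein-coding share of TPM of the 27, 12.3% in replicate 1 and 13.0% in replicate 2. Its highest model, Ncl-202, held 60.4% in replicate 1 and 60.0% in replicate 2 and is annotated as retained intron. Ncl-202 is 3072 nt long and has 12 exons, 9 of them identical to exons of the coding model Ncl-201, which has 14. One Ncl-202 exon of 1083 nt joins 3 exons of Ncl-201 and so keeps 2 introns. The last exon is 202 nt in Ncl-202 and 5978 nt in Ncl-201, whose total is 8202 nt. Ncl-201 itself held 10.57% of TPM in replicate 1 and 10.58% in replicate 2. By expected counts, Ncl-201 had 9413 of 30779 in replicate 1 and 12183 of 39681 in replicate 2. Ncl-205, a retained-intron model of 601 nt with 2 exons, neither identical to one of Ncl-201, held 25.96% in replicate 1 and 25.5% in replicate 2. Its expected counts were 1432 in replicate 1 and 1820 in replicate 2. Use of the long last exon was not tested. Imp4 was similar, with a coding model, Imp4-201, whose last exon is 4999 nt of 5836 nt. Imp4-201 held 30.9% of TPM in replicate 1 and 26.2% in replicate 2. By expected counts, it had 4228 of 5477 in replicate 1 and 4819 of 6565 in replicate 2. The nonsense-mediated decay model Imp4-204, of 762 nt, held 30.5% of TPM in replicate 1 and 34.9% in replicate 2. Over the 27 genes, the median protein-coding share was 87.8% in replicate 1 and 87.7% in replicate 2, against 91.9% in replicate 1 and 92.1% in replicate 2 for all detected protein-coding genes with several models.

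**Figure D4:**
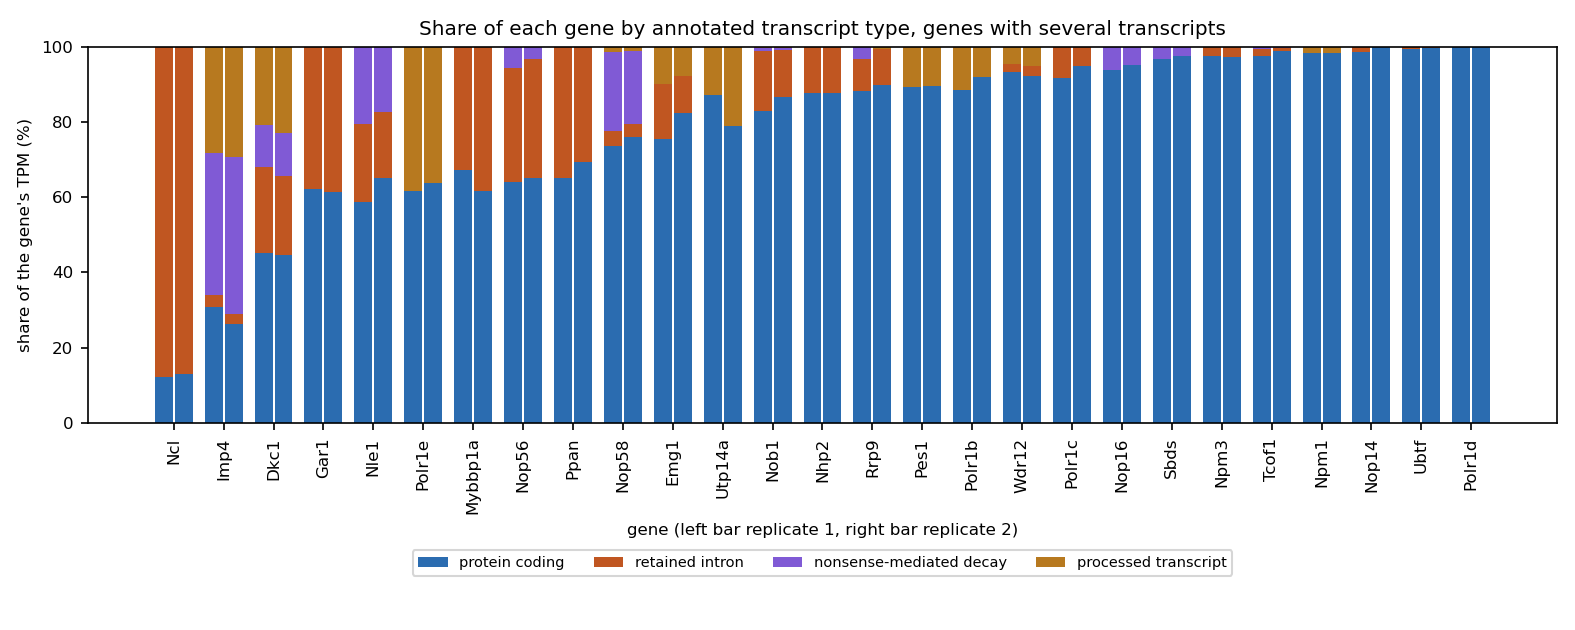
Share (%) of each gene's TPM by annotated transcript type for the 27 genes with several models, replicate 1 left and replicate 2 right of each pair. Ncl stands out with 12.3% and 13.0% in protein-coding models, and the pairs are much alike in most genes.

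Models with a retained intron held over 10% of the gene's TPM in both libraries in 9 of the 27 genes (33.3%), against 23.7% of the 9191 genes. The 9 were Ncl, Gar1, Ppan, Mybbp1a, Nop56, Dkc1, Nle1, Nob1 and Nhp2. Short models weigh more in TPM than in counts. Mybbp1a-204, a retained-intron model of 427 nt, held 20.7% of TPM in replicate 1 with 326 of 14789 expected counts. The number of genes over 10% by counts was not taken. By TPM, the 9 genes included 4 of the 5 genes with several models that carry snoRNA genes in them, and 5 of the other 22. The share for snoRNA hosts among the 9191 genes was not counted. A link between carrying snoRNA genes and retained-intron models was therefore not tested.

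Several of the 44 genes carry genes for snoRNAs, the RNAs that the C/D and H/ACA proteins bind. In GENCODE M21, 7 of the 44 (15.9%) hold snoRNA genes on their own strand, against 1.70% of the detected protein-coding genes. The 7 are Ncl, Nop56, Nop58, Dkc1, Gnl3, Ppan and Wdr43, with 21 snoRNA genes in all, so hosts include 2 of the 3 C/D proteins themselves. Of the 18 snoRNAs shorter than 100 nt, 9 had both the C box TGATGA within the first 20 bases and the D box CTGA within the last 15 (exact letters, on the RNA's own strand), against 63.5% of 458 annotated snoRNA transcripts of that length. Shown are 1 such RNA for each of 5 hosts, with the C and D boxes in capitals. Ppan also holds an RNA with both boxes, Gm23008, which is not shown. Also shown are 2 longer ones with the ACA of the last 6 bases in capitals. All are genomic letters from the GENCODE M21 transcripts (GRCm38). Snord82 lies in Ncl at chr1:86356261-86356330 on the minus strand, Snord110 in Nop56 at chr2:130275506-130275573 on the plus strand, Snord11 in Nop58 at chr1:59704790-59704873 on the plus strand, Snord69 in Gnl3 at chr14:31014287-31014366 on the minus strand and Snord92 in Wdr43 at chr17:71631281-71631365 on the plus strand. The longer ones are Snora75 in Ncl at chr1:86351169-86351301 on the minus strand and Gm24451 in Nop56 at chr2:130276237-130276369 on the plus strand.
Snord82: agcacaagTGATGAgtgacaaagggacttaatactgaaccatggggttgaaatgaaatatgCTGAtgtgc
Snord110: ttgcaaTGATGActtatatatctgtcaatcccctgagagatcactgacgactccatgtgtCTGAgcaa
Snord11: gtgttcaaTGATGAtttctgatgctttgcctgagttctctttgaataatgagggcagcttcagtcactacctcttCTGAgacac
Snord69: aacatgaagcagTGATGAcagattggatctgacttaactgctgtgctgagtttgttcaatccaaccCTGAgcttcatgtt
Snord92: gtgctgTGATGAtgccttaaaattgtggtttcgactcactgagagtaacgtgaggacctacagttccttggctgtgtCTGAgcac
Snora75: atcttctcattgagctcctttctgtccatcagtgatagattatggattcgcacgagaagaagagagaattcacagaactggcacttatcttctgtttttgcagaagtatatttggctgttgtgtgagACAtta
Gm24451: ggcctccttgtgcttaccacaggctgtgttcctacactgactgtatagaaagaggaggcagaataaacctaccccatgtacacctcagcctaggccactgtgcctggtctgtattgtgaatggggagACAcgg

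These RNAs themselves could hardly be measured here. The labels give an RNA size above 200 nt, and the tables give an effective length of 0 to the 18 snoRNAs under 100 nt. Of the 21 snoRNA genes 19 had 0 counts in both libraries. Gm24451, of 133 nt, had 8 counts in replicate 1 and 11 in replicate 2, and Snora75 0 in replicate 1 and 0.4 in replicate 2. The host levels above are therefore levels of the host transcripts, and say nothing of the snoRNA level.

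Some of the genes have a close neighbour. Within 1000 bases, 10 of the 44 (22.7%) had a protein-coding gene that starts in the opposite direction, against 10.2% of the detected protein-coding genes. Polr1c and Yipf3 start 26 bases apart, Nop16 and Higd2a 117 bases, Bop1 and Hsf1 145 bases, and Emg1 and the prohibitin gene Phb2 158 bases. Phb2 had 339 TPM in replicate 1 and 402 TPM in replicate 2. Of the 44 genes 14 overlap a protein-coding gene on the other strand, among them Gnl3 with Pbrm1 and Nop56 with Idh3b. The share of all detected protein-coding genes with such an overlap was not counted. Strand is not known for these libraries, so reads of such pairs cannot be told apart where they overlap.

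Promoters from 250 bases before to 50 after the start were found for 37 of the 44 genes in the RefSeq table (GRCm38.p6). The most upstream start of each gene was taken, which need not be the gene start of GENCODE M21, as for Ubtf and Rrp9. The E-box CACGTG, which reads the same on both strands and which Myc and its relatives can bind, was in 8 of 37 (21.6%), against 10.2% of 9805 promoters of detected protein-coding genes and 7.24% of all 27025. The 8 were Imp4, Mybbp1a, Nle1, Nop2, Pes1, Rrn3, Utp20 and Wdr43, and Rrn3 alone had more than 1. The ETS letters CCGGAAG, on either strand, were in 29.7% against 18.5% of the detected and 9.14% of all promoters. CCAAT was in 32.4% against 39.5% and 38.0%, GGGCGG in 59.5% against 66.5% and 35.9%, TATAAA in 8.11% against 6.45% and 14.2%, and the NRF1 letters GCGCATG in 8.11% against 7.404% and 4.03%, all on either strand. Median GC content was 56.3%, against 61.3% for detected genes. A match is a description and not a binding site. Shown are the 3 promoters with an E-box, in capitals, among the genes at the upper end of the library comparison or with divided transcripts. Rrn3 has E-boxes at -215 and -48 from its start (chr16:13780449-13780748 on the plus strand), Imp4 at -121 (chr1:34439579-34439878 on the plus strand) and Utp20 at 38 (chr10:88826765-88827064 on the minus strand).
Rrn3: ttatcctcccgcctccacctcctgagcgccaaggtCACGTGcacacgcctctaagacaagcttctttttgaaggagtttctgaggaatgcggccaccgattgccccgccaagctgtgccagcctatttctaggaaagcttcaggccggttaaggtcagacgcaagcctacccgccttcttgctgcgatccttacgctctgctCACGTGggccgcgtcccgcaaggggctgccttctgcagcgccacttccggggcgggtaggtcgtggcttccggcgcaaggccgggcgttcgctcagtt
Imp4: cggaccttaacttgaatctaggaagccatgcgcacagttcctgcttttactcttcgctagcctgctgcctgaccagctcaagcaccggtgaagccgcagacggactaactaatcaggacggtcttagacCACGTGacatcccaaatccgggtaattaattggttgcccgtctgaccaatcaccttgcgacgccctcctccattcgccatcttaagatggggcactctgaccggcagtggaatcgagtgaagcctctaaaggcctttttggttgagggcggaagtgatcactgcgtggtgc
Utp20: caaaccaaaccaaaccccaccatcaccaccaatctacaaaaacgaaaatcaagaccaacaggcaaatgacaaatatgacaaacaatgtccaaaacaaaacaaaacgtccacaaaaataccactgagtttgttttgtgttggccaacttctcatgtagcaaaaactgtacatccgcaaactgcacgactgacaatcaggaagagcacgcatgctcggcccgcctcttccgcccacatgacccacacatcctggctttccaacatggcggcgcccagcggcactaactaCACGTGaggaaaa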

How the data were processed

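Gene and transcript tables of 2 libraries were used, on mm10 with GENCODE M4 annotation per the file headers. The aligner is not given in the sources used here, nor is the quantifier. The deposited expected counts share reads among transcripts and need not be whole, so they were rounded for folds. The deposited TPM values correct counts for effective length (length less 99 nt) and scale each library to a fixed total. The deposited FPKM values and posterior mean TPM were alternatives. Isoform percent, as deposited, is a transcript's share of its gene. Credible bounds of TPM, deposited as a signal per gene, were looked at for precision only. Per the labels' protocols, 10 ng of RNA above 200 nt was used with spike-ins. Total RNA-seq is the assay named there, but a linked manual is of a kit that primes on poly(A) tails, so capture and strand are taken as unknown.

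Names, positions and transcript types came from GENCODE M21, matched for 42462 of 43346 gene identifiers, and its models may differ from M4. The 97 spike-in and 26248 tRNA rows stayed out of scaling. A gene counted as detected at 1 TPM or more in each library. Folds were computed for genes averaging 1 TPM or more, with TMM scaling from edgeR 4.0.16 (factors of 1.01 in replicate 1, 0.99 in replicate 2), 0.5 added to each count and a threshold of 1.5-fold, with exact binomial intervals. The 44 genes, the other gene lists and the markers were chosen with earlier results of these data known. All 44 genes are named; of each other list the 3 highest and 2 lowest are, except that a result this rule took is not reported here; in the library comparison, with none past 1.5-fold, the 3 at each end; and of transcripts, the genes whose highest one held under 50%. Ncl, Rpp25 and the neighbouring and snoRNA genes named beyond that were chosen after their values were seen, as were the split by length and the promoter motifs. Alternatives were other minimums, folds and filters, DESeq2 1.42.0 size factors, TPM and FPKM ratios, protein-coding transcripts alone and each replicate left out. Software was R 4.3.3 and Python 3.11.15 with matplotlib 3.10.9, scipy 1.17.1, pandas 2.3.3 and numpy 2.4.6.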

Additional observations from a re-analysis of the deposited data

How the results depend on the processing

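Between 42 and 44 of the 44 genes were detected under every alternative minimum and unit. Rescaling TPM to protein-coding genes without mitochondrial, globin and ribosomal protein genes raised every median: 101.5 for all 44 genes, 104.4 for scaffold proteins, 102.1 for the RNA polymerase I machinery, 327.8 for C/D, 234 for H/ACA, 70.1 for small subunit and 94.7 TPM for large subunit assembly. Posterior mean TPM gave 75.4 for the RNA polymerase I machinery. With a replicate left out the median of all 44 genes ran from 73.4 to 76.2 TPM. Counting protein-coding transcripts alone, ratios to Nop56 became 0.566 for Fbl, 0.822 for Nop58 and 1.32 for Snu13; ratios to Dkc1 became 2.13 for Nhp2, 1.98 for Nop10 and 0.606 for Gar1; ratios to Polr1a became 1.2 for Polr1b, 1.27 for Polr1e and 4.61 for Polr1c; Bop1 over Pes1 became 1.01 and Imp3 over Imp4 2.09. The same choice left 2 genes whose highest transcript held under 50%, against 7, since other types were dropped. At a log2 threshold of 0.32 in place of 0.58, 9 genes were called, and at the other settings none. The number lower in replicate 1 was 39 by TPM ratio and 42 under the other scalings and filters. Of all genes compared, 37.5% were lower by TPM ratio, and from 27.3% to 52.95% under the other scalings and filters. Leaving out a replicate leaves no comparison of libraries. No paired analysis was possible because the study has only 1 group. Depth limits Npm3 most, with 147 counts in replicate 1 and 211 in replicate 2.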

Other observations

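Of 13 tested genes known to regulate rRNA synthesis, 5 were lower in replicate 1, and the median log2 fold was 0.09, beside 42 of the 44 genes and -0.23. The highest were Maf1, a repressor of RNA polymerase III, with 182.4 TPM in replicate 1 and 158.2 TPM in replicate 2, Trp53 with 125.6 TPM in replicate 1 and 141.4 TPM in replicate 2, and Mycn, the Myc family gene of neural progenitors, with 100.8 TPM in replicate 1 and 120.0 TPM in replicate 2. Myc itself had 17.01 TPM in replicate 1 and 27.4 TPM in replicate 2, a fold of 0.569, past 1.5-fold. Cdkn2a was at 0 in both. Mxd1, a Myc antagonist, was past it in the other direction, with 11.48 TPM in replicate 1 and 6.84 TPM in replicate 2, a fold of 1.59. Myc and Mxd1 were chosen after their values were seen.

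Of 4 relatives of the nucleolar genes, 1 was detected. Gnl1, a relative of Gnl3, averaged 49.2 TPM. Npm2, an oocyte relative of Npm1, and Fbll1, a relative of Fbl, averaged 0.48 and 0.58 TPM, and Ubtfl1, a relative of Ubtf, was at 0 in both libraries.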
